A study of Mus musculus with 14 samples.

Results

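The granins are acidic proteins of the dense-core granules in which neurons and endocrine cells store peptide hormones. 7 genes were examined, namely Vgf, the chromogranins Chga and Chgb, the secretogranins Scg2 and Scg3, and the nucleobindins Nucb1 and Nucb2, taken by gene name from the 44672 genes of the table in which POMC Glp1r+ and POMC Lepr+ neurons were compared. Each of the 7 names matched 1 gene, and all 7 had a p-value. POMC neurons of the hypothalamus make a precursor that is cut into melanocortin peptides, which lower food intake. Ribosome-bound RNA was pulled down with an antibody against EGFP from mice in which the EGFP-tagged ribosomal protein L10a is made only where a Dre and a Cre recombinase are both active. The POMC Glp1r+ line had the genotype POMCDre+/- Glp1rCre+/- ROSA26lSlrSrEGFPL10a+/-, with 3 pools of 12 mice, 6 males and 6 females each. The POMC Lepr+ line had the genotype POMCDre+/- LeprCre+/- ROSA26lSlrSrEGFPL10a+/-, with 4 pools of 6 mice, 3 males and 3 females each. Mice of both lines were random-fed, were 12 weeks old and carried the POMC-Dre transgene, a bacterial artificial chromosome, together with the EGFPL10a allele at ROSA26. Each pool gave an input library, of RNA from the dissected tissue, and an IP library, of the pulled-down RNA, so that 14 libraries were made. According to the methods of the study the input came from whole hypothalami, whereas the sample labels name hypothalami in one field and the arcuate nucleus in another. Pool size differed with the line, and effects of these 2 factors cannot be told apart.

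Granins help to gather peptide precursors into granules at the trans-Golgi network, and most of them are themselves cut by prohormone convertases into active peptides. In POMC neurons they share the regulated secretory pathway with the melanocortin precursor. Vgf is best known in the hypothalamus through TLQP-21, a peptide cut from its C-terminal end, and mice that lack Vgf are small, lean and hypermetabolic. The nucleobindins are calcium-binding proteins and no granins. Nucb2 is the precursor of nesfatin-1, a peptide that lowers food intake in rodents, and Nucb1 is a protein of the Golgi.

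The promoters of 3 of the granins are shown because they differ in a motif by which cAMP-responsive factors of the CREB family are known to bind, the cAMP response element TGACGTCA, or in its core TGACG, both searched on either strand. They comprise 250 bases before and 50 bases after the gene start of RefSeq (GRCm38.p6), and capitals mark the motif. The RefSeq gene start can differ from the GENCODE one given with each gene. 6 of the 7 genes matched the promoter list, all but Vgf.
Chgb chr2:132781392-132781691, plus strand: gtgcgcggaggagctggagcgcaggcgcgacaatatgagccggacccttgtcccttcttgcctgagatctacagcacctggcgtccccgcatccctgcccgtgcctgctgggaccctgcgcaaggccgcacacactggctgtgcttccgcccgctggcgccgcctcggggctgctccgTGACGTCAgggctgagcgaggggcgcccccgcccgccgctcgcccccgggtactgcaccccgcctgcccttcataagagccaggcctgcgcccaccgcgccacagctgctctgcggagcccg
Scg2 chr1:79439977-79440276, minus strand: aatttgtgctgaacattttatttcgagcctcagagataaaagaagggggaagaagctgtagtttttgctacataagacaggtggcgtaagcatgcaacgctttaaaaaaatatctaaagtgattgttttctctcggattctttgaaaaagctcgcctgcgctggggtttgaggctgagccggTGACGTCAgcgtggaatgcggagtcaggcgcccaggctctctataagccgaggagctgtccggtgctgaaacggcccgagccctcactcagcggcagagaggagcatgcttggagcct
Chga chr12:102554691-102554990, plus strand: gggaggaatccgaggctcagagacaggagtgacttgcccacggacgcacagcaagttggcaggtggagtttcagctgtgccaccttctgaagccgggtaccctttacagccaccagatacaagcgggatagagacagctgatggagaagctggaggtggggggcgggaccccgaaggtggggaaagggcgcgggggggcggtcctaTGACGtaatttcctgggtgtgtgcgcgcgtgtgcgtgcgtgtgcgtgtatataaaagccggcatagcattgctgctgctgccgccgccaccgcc
The full element lay 72 bases before the gene start of Chgb and 68 bases before that of Scg2, and it was the only match to TGACGTCA in each window. Chga held the core without the full element, 44 bases before its start, where the letters read TGACGTAA. Scg3, whose promoter is not shown, held the core 30 bases before its start, where they read TGACGCCA. The windows of Nucb1 and Nucb2 held neither. Among 32851 mouse promoters of the same length, 1.79% held TGACGTCA and 20.8% held TGACG on either strand. The letters say nothing of whether a factor was bound in these neurons.

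The measure throughout was the mean IP/input ratio of a line, that is, the read count of a gene in the IP library divided by that in the input library of the same pool, averaged over the pools of the line. The deposited table gives a gene's mean over all pools and its log2 fold change between the lines, and the ratio of each line was solved from these 2 values. A ratio above 1 means more counts in the IP than in the input library, and since the ratios were not corrected for read depth, they were also set against the median protein-coding gene, which had a ratio of 1.17 in POMC Glp1r+ neurons, against 1.06 in POMC Lepr+ neurons. The ratio is no measure of abundance. Values of single pools and read totals were not analysed here, so the depth behind each gene is unknown. The 95% intervals given for each line follow from the standard error of the fold change under the fitted model and assume the same relative spread in both lines. They are not the measured spread of the pools. In bulk samples, fewer cells of a type in the pulldown and less RNA per cell cannot be told apart.

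All 7 genes had a mean ratio above 1 in both lines. The mean ratios ran from 1.17 to 4.51 in POMC Glp1r+ neurons, with a median of 2.04, and from 1.41 to 12.6 in POMC Lepr+ neurons, with a median of 1.87. Of the 14 line means, 13 had an interval wholly above 1, the exception being Scg3 in POMC Glp1r+ neurons. The interval lay above the median gene for 6 of 7 genes in POMC Glp1r+ neurons, again all but Scg3, and for 7 of 7 in POMC Lepr+ neurons. For comparison, 45.1% of 18395 protein-coding genes were above 1 in both lines (genes fixed at a ratio of 1 were left out), and 35.7% were above the median gene in both. Of 8 markers of neurons in general (pan-neuronal), 6 were above 1 in both lines and 5 above the median gene in both, so such ratios are not particular to the 7 genes. Vgf and Nucb1 ranked first and second in either line, while the order below them changed from line to line.

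**Figure D1:**
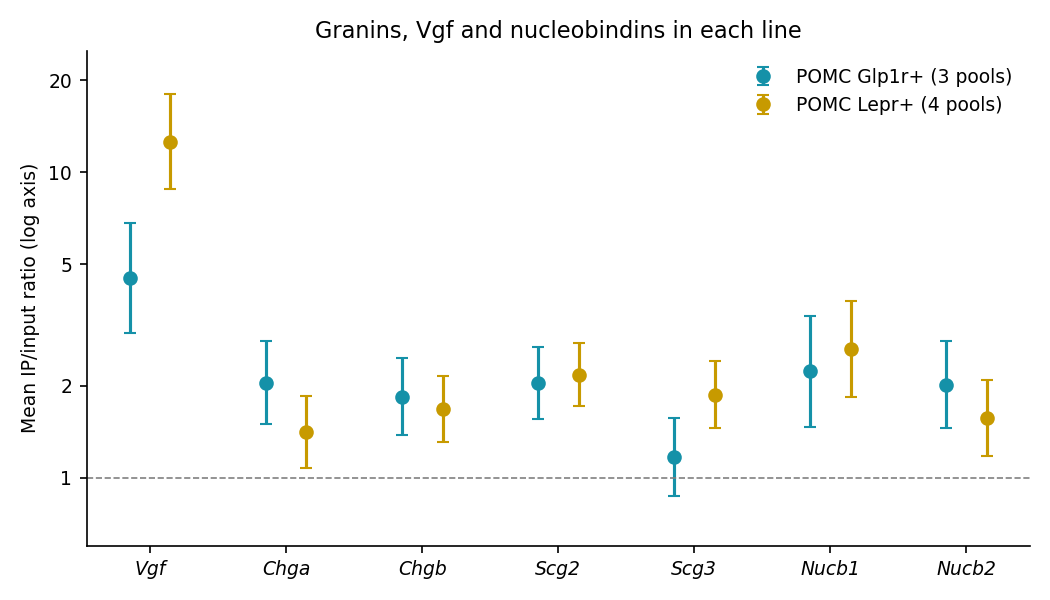
Mean IP/input ratio (log axis) of the 7 genes in POMC Glp1r+ neurons (left point of each pair, 3 pools) and POMC Lepr+ neurons (right point, 4 pools), with model-based 95% intervals; the dashed line marks a ratio of 1. The 2 intervals of Vgf do not overlap, at 2.99 to 6.81 in POMC Glp1r+ and 8.83 to 18.0 in POMC Lepr+ neurons, whereas those of every other gene do.

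Vgf (ENSMUSG00000037428) lies on chromosome 5 at 137026392-137033351 on the plus strand (GRCm38) and is annotated with 6 exons. Its mean IP/input ratio was 4.51 in POMC Glp1r+ neurons (95% interval 2.99 to 6.81) and 12.6 in POMC Lepr+ neurons (8.83 to 18.0). In both lines Vgf stood above the median gene, 3.87-fold in POMC Glp1r+ neurons and 11.9-fold in POMC Lepr+ neurons. The ratio was 2.79-fold lower in POMC Glp1r+ than in POMC Lepr+ neurons (interval 1.62 to 4.82). On the log2 scale the difference was -1.48 ± 0.40 (SE, 3 and 4 pools), with p = 0.000213 by the authors' Wald test in DESeq2 and an adjusted p of 0.0160 (Benjamini-Hochberg, 43199 genes). Vgf was the only one of the 7 genes called at an adjusted p below 0.05, or 14.3% of them, against 2.11% of all genes tested and 0.836% called in the same direction, lower in POMC Glp1r+ neurons. Among protein-coding genes alone, 3.14% were called. The Wald test takes the standard error as known. When the same statistic was read against a t distribution with 5 degrees of freedom, the unadjusted p of Vgf was 0.0140 and its adjusted p 0.999, and 0 of the 43199 genes were called, with 2126 at an unadjusted p below 0.05.

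Vgf stood at percentile 98.6 of the protein-coding genes in POMC Glp1r+ neurons and at percentile 99.5 in POMC Lepr+ neurons. Only 39 protein-coding genes had a higher ratio than Vgf in both lines, which is 0.212% of them. Among these were Pomc itself, with a ratio of 81.6 in POMC Glp1r+ neurons, against 239 in POMC Lepr+ neurons, and Cartpt, a peptide precursor made by many POMC neurons, with 11.0 in POMC Glp1r+ neurons, against 48.6 in POMC Lepr+ neurons. Several of the 39 are predicted genes, so such a rank is not particular to genes typical of POMC neurons.

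**Figure D2:**
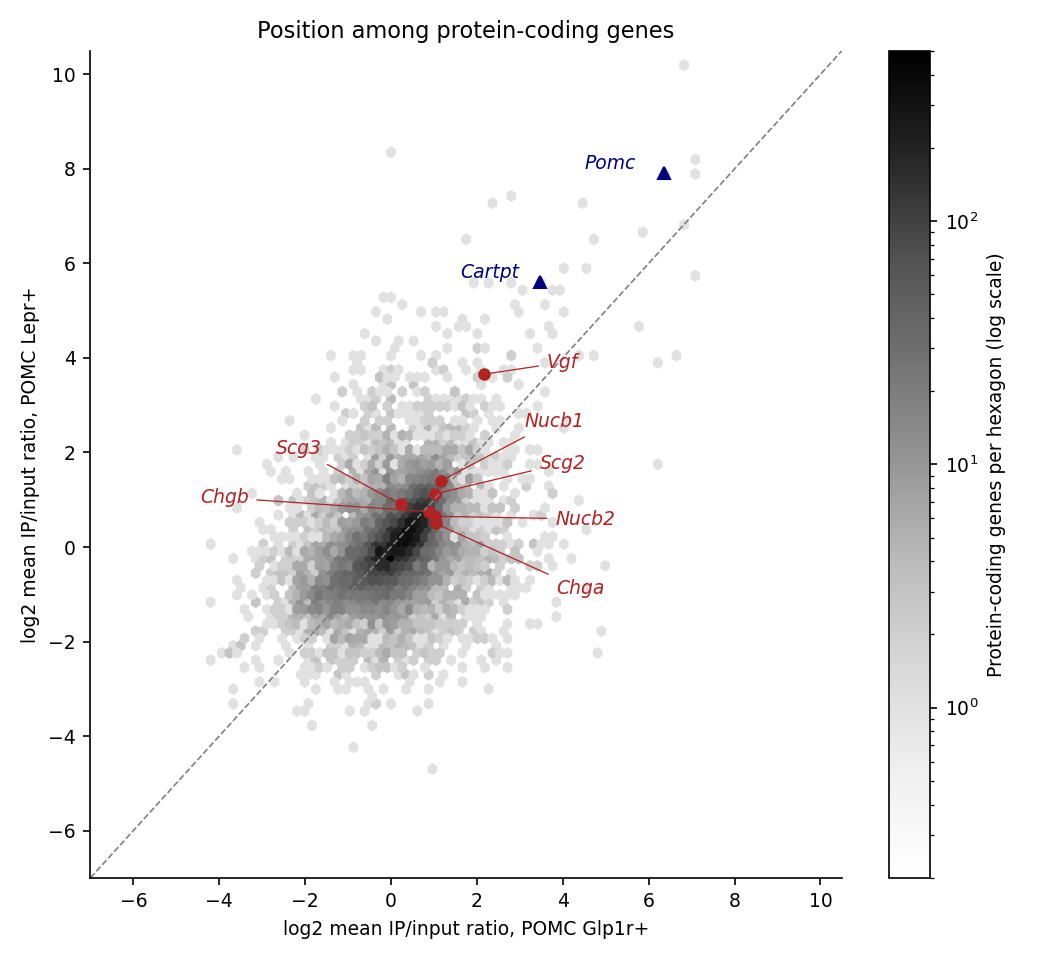
Log2 mean IP/input ratio of protein-coding genes in POMC Glp1r+ (horizontal axis) and POMC Lepr+ neurons (vertical axis); the grey scale gives the number of genes in each hexagon on a log scale, red points are the 7 genes, triangles are Pomc and Cartpt, and the dashed line marks equal ratios. Vgf lies far above the line at ratios of 4.51 in POMC Glp1r+ neurons, against 12.6 in POMC Lepr+ neurons, on the side of Pomc and Cartpt, while the other 6 genes sit in or at the upper edge of the dense part.

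Most genes typical of POMC neurons had, like Vgf, a negative fold change, although only Cartpt among them passed the test in that direction. A negative sign was not particular to them. All 6 astrocyte, all 6 oligodendrocyte and all 6 microglia markers had one too, with median log2 fold changes of -0.68, -0.74 and -0.81. Of 8 pan-neuronal markers 5 were positive, as were all 4 markers of AgRP neurons. The log2 fold change, POMC Glp1r+ over POMC Lepr+, of Pomc was -1.55 ± 0.83 (SE; adjusted p = 0.536 in DESeq2's Wald test) and -2.14 ± 0.50 for Cartpt (adjusted p = 0.00291). In the list of 6 POMC neuron markers, 5 had a negative fold change, and the median ratio was 12.3 in POMC Glp1r+ neurons (range 2.92 to 81.6) and 33.3 in POMC Lepr+ neurons (0.641 to 239). The exception was Nr5a1, a nuclear receptor best known from neurons of the ventromedial hypothalamus, which was called higher in POMC Glp1r+ neurons, with a ratio of 5.12 in POMC Glp1r+ neurons, against 0.641 in POMC Lepr+ neurons (log2 fold change 3.00 ± 0.69, adjusted p = 0.00200). Without Nr5a1 the median of the list was 13.5 in POMC Glp1r+ neurons, against 41.1 in POMC Lepr+ neurons. The receptors that define the lines followed their labels in direction, since Lepr had a ratio of 2.25 in POMC Glp1r+ neurons, against 9.03 in POMC Lepr+ neurons (adjusted p = 0.0182) and Glp1r had 9.42 in POMC Glp1r+ neurons, against 3.39 in POMC Lepr+ neurons (adjusted p = 0.295). Markers of AgRP neurons, the neighbouring neurons that promote feeding, were higher in POMC Glp1r+ neurons in 3 of 4 genes by the test, with a median ratio of 3.00 in POMC Glp1r+ neurons (1.51 to 5.45) and 1.15 in POMC Lepr+ neurons (0.219 to 2.86). Pan-neuronal markers had a median ratio of 1.57 in POMC Glp1r+ neurons (1.12 to 2.05) and 1.41 in POMC Lepr+ neurons (0.518 to 2.02). All 6 astrocyte markers were below 1 in both lines, with medians of 0.335 in POMC Glp1r+ neurons (0.234 to 0.405) and 0.461 in POMC Lepr+ neurons (0.395 to 0.677), and none was called. Of markers of the other cells that the tissue holds, the median ratio was 0.345 in POMC Glp1r+ neurons and 0.575 in POMC Lepr+ neurons for oligodendrocytes, 0.299 in POMC Glp1r+ neurons and 0.525 in POMC Lepr+ neurons for microglia, 0.919 in POMC Glp1r+ neurons and 1.11 in POMC Lepr+ neurons for endothelial cells, and 0.480 in POMC Glp1r+ neurons and 0.847 in POMC Lepr+ neurons for tanycytes, glial cells that line the floor of the ventricle. None of the genes in these lists was called. Tanycyte markers ranged widely, from 0.378 to 1.87 in POMC Glp1r+ neurons and from 0.394 to 5.42 in POMC Lepr+ neurons. Their lowest log2 fold change was -1.53 and their highest 0.61. Markers of pituitary endocrine cells had medians of 0.893 in POMC Glp1r+ neurons (0.661 to 1.50) and 0.909 in POMC Lepr+ neurons (0.418 to 2.02). The pituitary is a further site of POMC expression, but these genes mark its other endocrine cells, so the list does not cover its POMC cells. The part of these markers in the Vgf difference was not tested.

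Chga (ENSMUSG00000021194, chromosome 12, 102554969-102565028, plus strand, 8 exons) encodes chromogranin A, the precursor of pancreastatin and catestatin. Its mean IP/input ratio was 2.05 in POMC Glp1r+ neurons (95% interval 1.50 to 2.81) and 1.41 in POMC Lepr+ neurons (1.08 to 1.86). It had the most positive fold change of the 7 genes, at 0.54 ± 0.31 on the log2 scale, with an interval of -0.06 to 1.14 and an adjusted p of 0.591 in DESeq2's Wald test. Its percentile among protein-coding genes was 92.3 in POMC Glp1r+ neurons, against 73.7 in POMC Lepr+ neurons, the lowest of the 7 genes in POMC Lepr+ neurons. With its standard error, a difference smaller than 2.01-fold could not have been called.

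Chgb (ENSMUSG00000027350, chromosome 2, 132781278-132795079, plus strand, 5 exons) encodes chromogranin B, and Scg2 (ENSMUSG00000050711, chromosome 1, 79434669-79440120, minus strand, 2 exons) encodes secretogranin II, the precursor of secretoneurin. They are the genes with the full cAMP response element printed above. The ratio of Chgb was 1.84 in POMC Glp1r+ neurons (1.38 to 2.46) and 1.68 in POMC Lepr+ neurons (1.31 to 2.16). That of Scg2 was 2.04 in POMC Glp1r+ neurons (1.56 to 2.68) and 2.18 in POMC Lepr+ neurons (1.72 to 2.76). These were the 2 smallest differences among the 7 genes. The log2 fold change of Chgb was 0.13 ± 0.28 (interval -0.42 to 0.68, adjusted p = 1 in DESeq2), and that of Scg2 was -0.09 ± 0.26 (-0.61 to 0.43, adjusted p = 1). The sign of Chgb was not firm, since after centring on the median pan-neuronal marker it was -0.058. For Scg2, which had the smallest standard error, the interval left room for a ratio 1.34-fold higher or 1.53-fold lower in POMC Glp1r+ neurons.

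Scg3 (ENSMUSG00000032181, chromosome 9, 75643189-75684056, minus strand, 14 exons) encodes secretogranin III, which binds chromogranin A and cholesterol-rich granule membrane. Its mean IP/input ratio was 1.17 in POMC Glp1r+ neurons (0.871 to 1.56) and 1.87 in POMC Lepr+ neurons (1.45 to 2.41). In POMC Glp1r+ neurons it was the lowest of the 7 genes and equal to the median gene, at 1.00 times its ratio and percentile 50.1, whereas in POMC Lepr+ neurons it stood at percentile 87.9. The log2 fold change was -0.68 ± 0.29, with an interval of -1.24 to -0.12. This did not pass the test after adjustment (unadjusted p = 0.0169, adjusted p = 0.273 in DESeq2). At an unadjusted p below 0.05 stood 2 of the 7 genes, Vgf and Scg3, or 28.6%, against 10.2% of all genes tested. The genes tested include those fixed at a ratio of 1 in both lines, which could not reach such a p, so 10.2% is a low baseline. Over the marker lists the share ran from 0% (pituitary endocrine cells) to 75% (AgRP neurons), with 37.5% for pan-neuronal markers. Against the t distribution the unadjusted p of Scg3 was 0.0624. Scg3 and its binding partner Chga stood in opposite order in the lines, with a Chga ratio 1.76 times that of Scg3 in POMC Glp1r+ and 0.755 times in POMC Lepr+ neurons, a change that was not tested. A gene of unconfirmed coding status, Gm37871, overlaps Scg3 on the opposite strand, but it shares no exonic base with it.

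The nucleobindins lie on the same chromosome, Nucb1 (ENSMUSG00000030824) at 45490458-45510406 on the minus strand with 12 exons and Nucb2 (ENSMUSG00000030659) at 116504369-116540584 on the plus strand with 15 exons, both on chromosome 7. The mean IP/input ratio of Nucb1 was 2.23 in POMC Glp1r+ neurons (1.47 to 3.39) and 2.63 in POMC Lepr+ neurons (1.83 to 3.78). That of Nucb2 was 2.02 in POMC Glp1r+ neurons (1.46 to 2.80) and 1.57 in POMC Lepr+ neurons (1.18 to 2.09). Nucb1 thus stood above every granin but Vgf in both lines. Its log2 fold change was -0.24 ± 0.41 (interval -1.03 to 0.56, adjusted p = 1 in DESeq2), and that of Nucb2 was 0.36 ± 0.32 (-0.26 to 0.99, adjusted p = 0.963). The standard error of Nucb1 was the widest of the 7 genes, so that a difference below 2.52-fold could not have been called for it. Tulp2 overlaps Nucb1 on the opposite strand without sharing an exonic base.

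**Figure D3:**
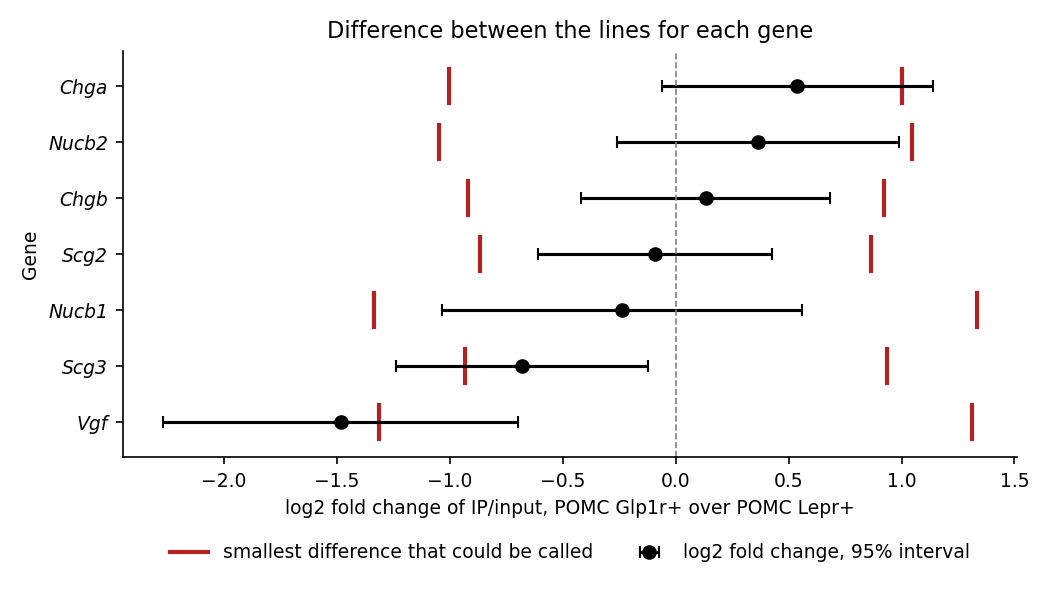
Log2 fold change of the IP/input ratio, POMC Glp1r+ over POMC Lepr+, for each of the 7 genes (points) with its 95% interval (bars); red ticks mark the smallest difference that could have been called with that gene's standard error. Vgf alone, at -1.48, lies beyond its tick, and 5 of the 7 intervals hold 0.

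Within each line, the ratio of the highest gene was 3.87 times that of the lowest in POMC Glp1r+ and 8.93 times in POMC Lepr+ neurons. Without Vgf the spread was 1.91-fold in POMC Glp1r+ neurons and 1.86-fold in POMC Lepr+ neurons. In POMC Glp1r+ neurons the order was Vgf, Nucb1, Chga, Scg2, Nucb2, Chgb and Scg3, and the intervals of all neighbours overlapped. In POMC Lepr+ neurons it was Vgf, Nucb1, Scg2, Scg3, Chgb, Nucb2 and Chga, and only Vgf was set apart from its neighbour, with a lower bound of 8.83 against an upper bound of 3.78 for Nucb1. The median log2 fold change of the 7 genes was -0.09, or 0.02 without Vgf, against 0.07 for all protein-coding genes, with 3 genes positive and 4 negative. The median without Vgf turned negative once fold changes were centred on the median protein-coding gene or on the pan-neuronal markers.

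The genes closest to each of the 7 by both line means, measured as the distance in log2 ratios over these 2 values, were other genes for each. Closest to Vgf were Apob at a distance of 0.07, with ratios of 4.33 in POMC Glp1r+ neurons, against 13 in POMC Lepr+ neurons, then Bcl3 at 0.17 and Dbh at 0.23. Pcdhgb2, Grb7 and Cep295nl were closest to Chga, Tunar, Cbwd1 and Prorp to Chgb, and Sgsh, Kcnj3 and Dnajb4 to Scg2. Rplp1, 2700081O15Rik and Gm10985 were closest to Scg3, Lypla2, Bcam and Tceal3 to Nucb1, and Insl3, Apex1 and Tspyl3 to Nucb2. None of the 7 genes was among the 3 closest of another. With 2 values per gene, such likeness is a description of position only.

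The other proteins of the dense-core granule were followed in 36 genes of 5 lists. Of these, 1 was called higher and 1 lower in POMC Glp1r+ neurons, or 5.56% against 2.11% of all genes and 3.14% of protein-coding genes. At an unadjusted p below 0.05 stood 8 higher and 6 lower, or 38.9% against 10.2% of all genes, and the median log2 fold change was 0.13, against 0.07 for all protein-coding genes. That 10.2% is a low baseline, since it includes genes fixed at a ratio of 1, and the share of protein-coding genes alone was not computed. Marker lists stood at 37.5% (pan-neuronal), 33.3% each (astrocytes, oligodendrocytes, tanycytes), 16.7% each (microglia, endothelial cells) and 0% (pituitary endocrine cells). POMC neuron markers stood at 66.7% and AgRP neuron markers at 75%, so a share above 10.2% is not particular to the granule genes. Since the lists were chosen with earlier results known, these shares are a description. Both called genes encode enzymes that cut prohormones. Pcsk2, the convertase that acts on many precursors in the granule, had a ratio of 1.72 in POMC Glp1r+ neurons, against 0.682 in POMC Lepr+ neurons, a log2 fold change of 1.34 ± 0.30 (adjusted p = 0.00186 in DESeq2). Furin, a convertase of the trans-Golgi network and cell surface, had 0.634 in POMC Glp1r+ neurons, against 1.84 in POMC Lepr+ neurons, a log2 fold change of -1.54 ± 0.45 (adjusted p = 0.0338). Neither was called against the t distribution, where their unadjusted p was 0.00710 for Pcsk2 and 0.0185 for Furin. With fold changes centred on the median pan-neuronal marker, 5 of the 36 genes were called instead of 2, and the medians of 0.13 turned negative, since that centring took 0.19 from every log2 fold change.

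The 2 remaining granin-like proteins did not pass the test. In the other lists, the genes farthest above input and closest to a ratio of 1 are given, both by the mean of the log2 ratios of the lines and not within each line. Scg5, also named 7B2, the chaperone of Pcsk2, had a ratio of 1.92 in POMC Glp1r+ neurons, against 1.56 in POMC Lepr+ neurons (adjusted p = 0.732 in DESeq2). Pcsk1n, or proSAAS, an inhibitor of Pcsk1, had 1.77 in POMC Glp1r+ neurons, against 1.86 in POMC Lepr+ neurons (adjusted p = 1). Among the 8 processing enzymes, whose median log2 fold change was -0.52, Pcsk1 was the farthest above input, at 1.91 in POMC Glp1r+ neurons, against 2.98 in POMC Lepr+ neurons (adjusted p = 0.286), and Cpd the closest to a ratio of 1, at 0.775 in POMC Glp1r+ neurons, against 1.22 in POMC Lepr+ neurons. Among 12 genes of granule membrane and biogenesis (median 0.13, none called, 1 lower and 0 higher at an unadjusted p below 0.05), Ptprn, the granule membrane protein IA-2, reached 2.78 in POMC Glp1r+ neurons, against 4.73 in POMC Lepr+ neurons (adjusted p = 0.166), and Ccdc186 lay at 1.10 in POMC Glp1r+ neurons, against 0.979 in POMC Lepr+ neurons. Among 12 genes of granule exocytosis (median 0.38, none called), 7 were higher and 1 lower in POMC Glp1r+ neurons at an unadjusted p below 0.05. That is 66.7%, against 10.2% of all genes, those fixed at a ratio of 1 included. Over the marker lists the same share ran from 0% (pituitary endocrine cells) to 75% (AgRP neurons). The calcium sensor Syt4 was the lower gene, with 1.50 in POMC Glp1r+ neurons, against 2.83 in POMC Lepr+ neurons (adjusted p = 0.123), and Cadps lay closest to 1, at 1.14 in POMC Glp1r+ neurons, against 0.888 in POMC Lepr+ neurons. Of the 8 pan-neuronal markers, 5 had a positive fold change, and 3 were higher and 0 lower at an unadjusted p below 0.05. The exocytosis and pan-neuronal lists share a gene. Of the receptors reported for TLQP-21, C3ar1 had a ratio of 1.12 in POMC Glp1r+ neurons, against 0.743 in POMC Lepr+ neurons (adjusted p = 1, with a wide standard error of 0.69 on the log2 scale), and C1qbp had 1.73 in POMC Glp1r+ neurons, against 1.63 in POMC Lepr+ neurons (adjusted p = 1).

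**Figure D4:**
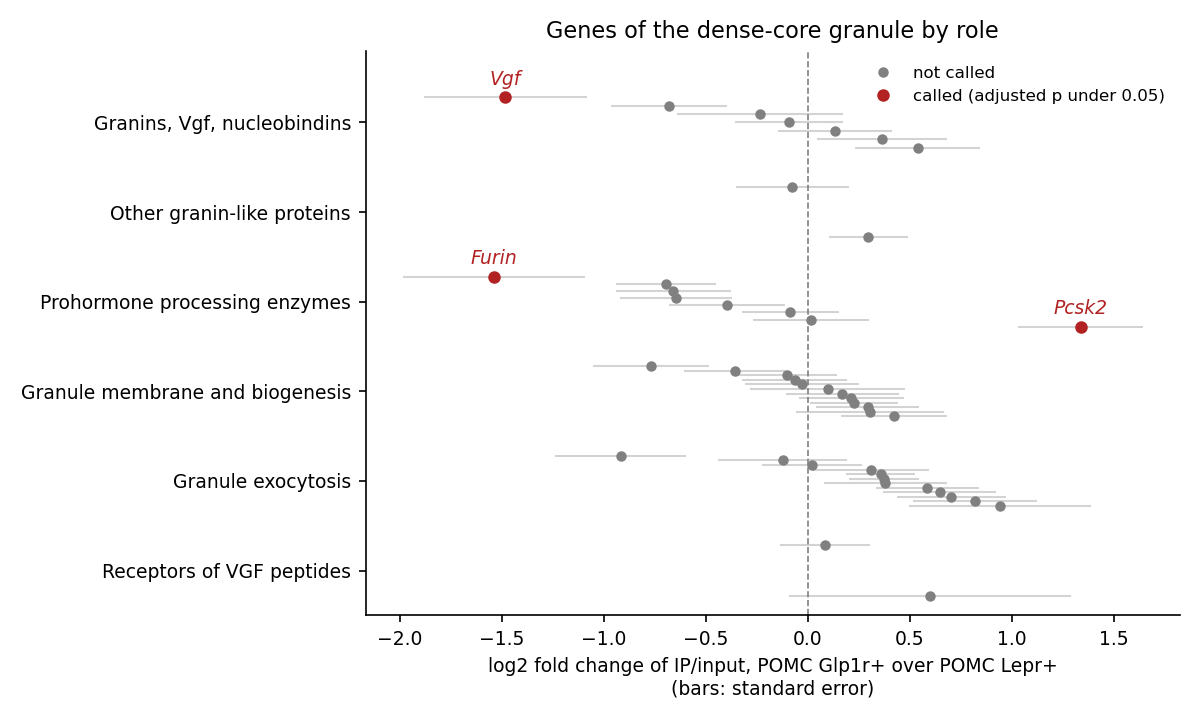
Log2 fold change of the IP/input ratio, POMC Glp1r+ over POMC Lepr+, of the 7 genes (top row) and of 36 further dense-core granule genes in 5 lists by role; points are genes, bars are standard errors, and red points have an adjusted p below 0.05. Vgf, Furin and Pcsk2 are the 3 called genes, and 10 of the 12 exocytosis genes lie to the right of 0.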

How the data were processed

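Ribosome-bound and input RNA of 7 pools of tissue was sequenced in 14 libraries. The authors aligned the reads to GRCm38.p6 with STAR and counted genes with Salmon (0.14.1 in the submitters' processing notes). The sources differ on read length and Ensembl release. The authors then divided the IP count of each pool by its input count and ran the Wald test of DESeq2 (1.26.0) between the lines. The deposited table holds this comparison, and values of single libraries were not analysed here. The deposited mean of each gene is a score: it gave a whole number when multiplied by 7 in 100% of genes (tolerance 1e-06). It was therefore read as an average of rounded values over all 7 pools. The whole numbers do not give the scale, and a factor of 1000 was assumed. In 13002 genes both lines stood at 1000, which was read as a ratio of 1. A positive deposited log2 fold change means a higher ratio in POMC Glp1r+ neurons, and the deposited Wald statistic is a score. The authors' p-values and adjusted p-values are given for 43199 genes and missing for 1473, and 912 genes had an adjusted p below 0.05, 551 of them higher in POMC Glp1r+ neurons. These columns are the authors' own test and are described as such, since no libraries could be tested here.

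For each line a mean ratio was solved from these columns, weighting the lines by their 3 and 4 pools, and its interval from the dispersion that the standard error implies. The solution was tested on data simulated under the same formulas with a fixed dispersion. This checks the algebra only, not the intervals or the assumption of equal relative spread. 13002 genes had a ratio of 1 in both lines (tolerance 0.05 on the deposited scale) and were left out of percentiles. Coordinates came from GENCODE M21 (GRCm38), in which 44116 of the 44672 identifiers were found, and promoters from RefSeq. Pools are separate groups of mice and are the replicates of the test. Its p-values rest on the standard error of the fitted model, which is not the measured spread of the pools. Depth per library is unknown.

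The 7 genes, the granule lists and the markers were chosen with earlier results of these data known. Named were these genes, the called genes of the lists, in each list the gene closest to a ratio of 1 and the one farthest above input, Pomc, Cartpt, Lepr and Glp1r, and the 3 closest protein-coding genes of each of the 7. Nr5a1 was named from its marker list after its value was seen. Alternatives changed the genes over which p-values are adjusted, the reference distribution, the centring, the threshold and a filter on the mean. Software was numpy 2.4.6, scipy 1.17.1, pandas 2.3.3 and matplotlib 3.10.9 under Python 3.11.15.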

Additional observations from a re-analysis of the deposited data

Results flagged for a closer look

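The IP/input effect of 6 named genes differed between the lines by the test of that difference, the Wald test of DESeq2 with adjustment over all genes. As log2 fold changes of POMC Glp1r+ over POMC Lepr+, these were -1.48 for Vgf, 1.34 for Pcsk2, -1.54 for Furin, -2.14 for Cartpt, -2.00 for Lepr and 3.00 for Nr5a1. Vgf, Furin, Cartpt and Lepr were lower and Pcsk2 and Nr5a1 were higher in POMC Glp1r+ neurons. Lepr is the gene whose Cre allele defines the POMC Lepr+ line.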

How the results depend on the processing

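Under 7 alternatives to the test, 66 of 77 values were unchanged. The values are log2 fold changes, judged by direction and side of the threshold, and numbers of called genes. Fold changes moved only under centring on the median protein-coding gene or pan-neuronal marker. Under the other alternatives no direction could change. The tally also holds the 6 genes that were never called, so it does not show how firm the call of Vgf was. That call was lost against a t distribution and at a threshold of 0.01. Set relative to the median protein-coding gene, the 14 line means each moved by less than the spread the model implies. Against a t distribution with 5 degrees of freedom, 0 of the 7 genes and 0 of the 36 granule genes were called, Vgf keeping its log2 fold change of -1.48 at an adjusted p of 0.999. The same alternative called 0 of 43199 genes, against 912, and 2126 genes had an unadjusted p below 0.05. At a threshold of 0.01, 0 of the 7 genes were called, since Vgf (-1.48) had an adjusted p of 0.0160, and 1 of the 36 granule genes was called. Centring on the median pan-neuronal marker, which moved all fold changes by 0.19, gave 5 called granule genes, turned the log2 fold change of Chgb to -0.058 (adjusted p = 0.931), and gave 390 genes higher and 666 lower in POMC Glp1r+ neurons in place of 551 and 361. At a threshold of 0.01, 487 genes were called in all. The adjusted p of Vgf ran from 0.00391 to 0.999 over the alternatives, and that of the other 6 genes was at least 0.0747. No paired analysis was possible because the values of single pools were not analysed here, and for that reason the alternatives that leave out 1 pool or add a replicate block were not run. The unknown depth and the few pools, 3 and 4, limit the result: of the 6 genes not called, a difference below 1.82-fold could not have been called for any.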
